A study of Homo sapiens with 24 samples.

Results

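The window holds the bins of the 1 kb OG-seq table that start between 2560000 and 2760000 on chromosome 1 (GRCh38), and it was chosen by the mean deposited value of 3 of its bins, which was very high in every genotype. It comprises 201 of the 2835235 bins of the table, and the 3 bins that led to its choice are called the hotspot. Both limits are as in the table, which counts from 0. Counted from 1, as in all that follows, the hotspot bins start at chr1:2653001, chr1:2654001 and chr1:2655001, and bins named by their start are 1000 bp long. The window is named after MMEL1, but the hotspot does not lie in that gene.

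OG-seq pulls down DNA fragments that carry 8-oxoguanine (OG), an oxidised form of guanine, after biotin has been attached to the lesion, and compares the sequenced fragments with input DNA. The cells were HAP1, a human line with a near-haploid genome that descends from a leukemia. WT cells were compared with CRISPR-Cas9 knockouts of MUTYH (MUTYH-/), of OGG1 (OGG1-/) and of both genes (DKO), all without further treatment. There were 3 columns of OG values per genotype. The sample titles show 2 clones for each genotype, with 2 of its 3 samples from the same clone, so the columns are not independent clones. Which clone or experiment a column number stands for was not known here. Both DKO clones were derived from an OGG1-/ clone, per the study's supplement. P-values over the columns therefore measure only the spread between these columns, which may be technical. A deposited value is the number of OG reads in a bin minus the input reads of that bin scaled by signal extraction scaling (SES). It was divided by the mean of its column over all bins, so that 1 is the level of an average bin. The OG reads recovered from the values ranged from 59605795 to 113916768 per column, and the input reads from 78621690 to 101609126.

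OG forms when reactive oxygen species attack guanine, the base that is most easily oxidised. OGG1 is the glycosylase that cuts OG out where it pairs with cytosine, whereas MUTYH removes the adenine that has been inserted opposite OG. MMEL1 encodes a membrane metalloendopeptidase related to neprilysin, and TTC34, its neighbour, encodes a protein with tetratricopeptide repeats.

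The annotation placed the hotspot in TTC34 (ENSG00000215912.13, chr1:2636986-2801693, minus strand). All 3 bins lay in intron 6 of its canonical transcript, which has 9 exons, and this intron spans chr1:2645564-2783608 (138045 bp). No annotated exon overlapped them. MMEL1 (ENSG00000142606.16, chr1:2590639-2633016, minus strand) ended 20985 bp before the first base of the highest bin, and since both genes run on the minus strand the hotspot lies upstream of MMEL1.

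The sequence of the window changed about 1000 bases before the hotspot. The first 92 bins, from chr1:2560001, had a median GC content of 57.7%, and a median of 27.2% of bases equalled the base 40 positions further on (27.4% over all bins of the genome). In the following 51 bins, from chr1:2652001 to 2703000, this share rose to a median of 72.1%, with a GC content between 59.5% and 64.2%. These bins are a tandem array of a 40 bp unit. An assembly gap of 43509 undetermined bases follows (chr1:2702782-2746290). The 43 bins that lie wholly in it were at 0 in every column. The array continues in the last 15 bins of the window. Beyond the window, 13 further bins had a self-match of at least 50% at 40 bases. The last of them starts at chr1:2798001, so they do not form an unbroken run. Of the 2805934 bins of the genome with enough called bases, 0.0409% reached a self-match of 50% at this distance.

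The repeat is shown because every high bin of the window is made of it. The most frequent version of the unit, with 30 exact copies in the array before the gap and 45 in the genome, is given first. Capitals mark the most frequent 16-base stretch of the array, AGCATCTGACAGCCTG, which was searched on both strands. All 66 array bins of the window contained it, against 91 bins (0.00321%) of the whole table, of which 6 lay outside this locus. The last 4 bins before the array, starting at chr1:2648001, held it as well, with 2, 2, 5 and 1 copies, although their self-match was only 27.7% to 37.5% and their mean values were 0.878, 2.46, 1.36 and 1.60 times the column mean. The second line covers the left edge of the array. The third is the start of the highest bin, the fourth a stretch of the array with a lower value (6.05 times the column mean) and the fifth the start of the highest bin after the gap. All are plus strand sequences of GRCh38, written 5′ to 3′.
Repeat unit, chr1:2653397-2653436: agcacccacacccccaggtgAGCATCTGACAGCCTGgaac
Left edge, chr1:2651861-2652060: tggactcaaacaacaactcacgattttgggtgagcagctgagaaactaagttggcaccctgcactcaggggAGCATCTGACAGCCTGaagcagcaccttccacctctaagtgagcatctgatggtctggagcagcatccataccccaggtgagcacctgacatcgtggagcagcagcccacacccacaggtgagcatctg
Highest bin, chr1:2654001-2654280: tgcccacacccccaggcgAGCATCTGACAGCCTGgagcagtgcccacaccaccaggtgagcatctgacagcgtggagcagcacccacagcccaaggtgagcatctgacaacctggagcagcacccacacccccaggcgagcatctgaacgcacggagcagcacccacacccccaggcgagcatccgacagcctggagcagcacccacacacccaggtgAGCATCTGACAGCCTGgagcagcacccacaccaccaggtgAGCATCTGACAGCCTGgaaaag
Array at a lower value, chr1:2672001-2672280: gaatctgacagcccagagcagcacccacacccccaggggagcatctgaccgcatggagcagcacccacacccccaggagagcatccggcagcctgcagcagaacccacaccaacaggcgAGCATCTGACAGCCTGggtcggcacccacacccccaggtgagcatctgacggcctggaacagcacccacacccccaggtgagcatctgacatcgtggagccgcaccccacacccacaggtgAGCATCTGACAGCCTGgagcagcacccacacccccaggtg
After the gap, chr1:2758001-2758280: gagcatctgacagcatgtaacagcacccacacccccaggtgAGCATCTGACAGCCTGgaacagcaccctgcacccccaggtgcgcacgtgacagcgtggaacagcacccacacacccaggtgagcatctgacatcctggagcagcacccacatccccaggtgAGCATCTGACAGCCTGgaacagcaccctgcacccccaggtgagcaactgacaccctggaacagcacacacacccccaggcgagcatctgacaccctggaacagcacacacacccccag

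The plus strand of the array is rich in cytosine: the highest bin held 375 C and 247 G, so that the guanines lie mainly on the minus strand, which is the sense strand of TTC34. The GC content of the highest bin (62.2%) exceeded that of 98.8% of bins, and its 23 CpG sites exceeded those of 93.3%. No G4 motif (4 runs of at least 3 G with loops of 1 to 7 bases, either strand) was found in any of the 66 array bins. Among the 92 bins before the array, 43 held such a motif, against 9.82% of all bins. G4 motifs were thus found in the part of the window with the lower values and not in the array.

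The OG value rose steeply where the array began. The bins before the array had a median of 1.51 times the column mean over the 12 columns and a maximum of 3.02. The first 4 array bins had 19.6 ± 5.55 (chr1:2652001), 24.8 ± 5.08 (chr1:2653001), 28.04 ± 7.90 (chr1:2654001) and 20.3 ± 6.64 (chr1:2655001) (mean ± SD, n = 12 columns). The value then fell to a median of 7.14 over the columns in the next bin. Between this shoulder and the gap the array stayed mostly above the genome average, with a second rise about 30 kb from the highest bin.

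**Figure D1:**
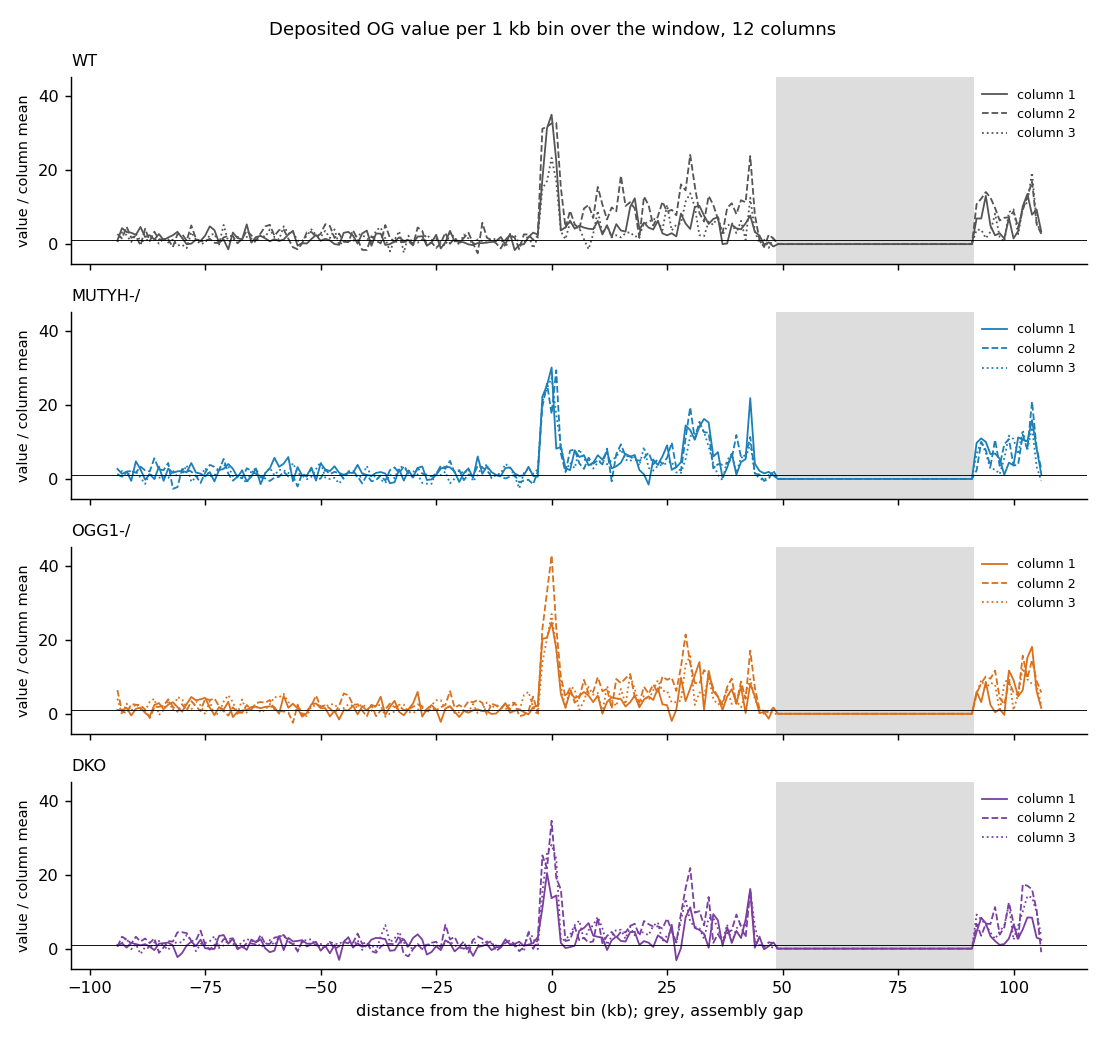
Deposited OG value of each 1 kb bin divided by the mean of its column (y axis) against the distance from the highest bin in kb (x axis), with 1 panel per genotype and 1 line per column. All 12 columns peak within 1 kb of distance 0 and return to 0 in the assembly gap (grey), where the 43 bins were at 0.

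The further bins with the highest mean were all in the array. Beside the bin at chr1:2652001 these were chr1:2758001-2759000 with 14.5 ± 4.36, chr1:2697001-2698000 with 14.1 ± 5.24, chr1:2684001-2685000 with 13.5 ± 6.03 and chr1:2683001-2684000 with 11.5 ± 5.17 (mean ± SD, n = 12). Of the 66 array bins, 57 had a mean above 3, against 1 of the 92 bins before the array. The lowest bins outside the gap were chr1:2647001-2648000 (-0.052 ± 1.25), which is not array, chr1:2700001-2701000 (0.238 ± 0.70), the array bin with the fewest self-matches (59.0%), and chr1:2627001-2628000 (0.354 ± 1.21) in MMEL1. The array was thus high over most of its length, but the last 4 bins before the gap had means of only 0.238 to 1.25.

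The highest bin was followed through the columns. In WT its value was 34.96, 32.6 and 23.3 times the column mean in columns 1, 2 and 3. In MUTYH-/ it was 30.1, 17.5 and 27.3. In OGG1-/ it was 24.7, 42.8 and 26.9. The highest single value of the locus was thus in OGG1-/ column 2, and the other OGG1-/ columns lay inside the range of WT. In DKO the values were 13.6, 34.5 and 28.1, the widest spread of the 4 genotypes. All genotypes overlapped.

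The bin before it, at chr1:2653001, was more even. WT had 31.3, 31.7 and 17.0 times the column mean, MUTYH-/ 25.3, 25.8 and 24.5, OGG1-/ 20.6, 32.8 and 20.4, and DKO 20.4, 21.7 and 25.9. The 3 MUTYH-/ columns nearly coincided there, while in WT and OGG1-/ one column stood apart. The bin after it, at chr1:2655001, had the largest spread of the hotspot relative to its mean: WT had 22.5, 32.8 and 17.1, MUTYH-/ 8.17, 29.4 and 17.4, OGG1-/ 17.7, 23.4 and 17.6, and DKO 14.3, 19.2 and 24.3. The MUTYH-/ columns alone covered nearly the whole range of that bin.

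**Figure D2:**
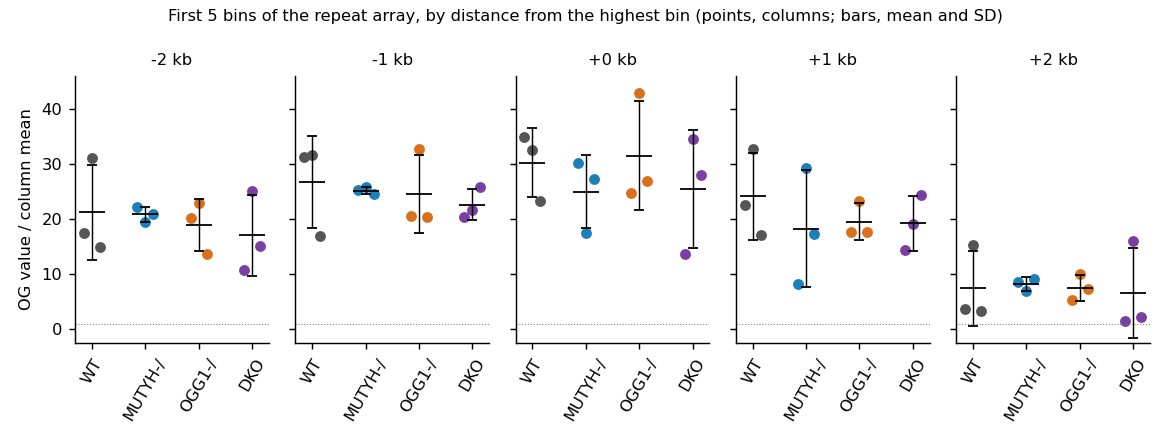
OG value divided by the column mean (y axis) in the first 5 bins of the array, by genotype; points are columns and bars the mean and SD of 3 columns. The genotypes overlap in each of the 5 bins, and values range from 1.56 to 42.8 against a genome average of 1 (dotted).

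The hotspot did not hold the very highest ranks in every genotype. By the mean deposited value of the 3 columns, the 3 bins in genomic order ranked 3, 2 and 5 among all bins in WT and 2, 1 and 10 in MUTYH-/. In OGG1-/ they ranked 8, 3 and 11, and in DKO 2, 1 and 3. In single columns the highest bin ranked between 1 and 9, and the bin at chr1:2655001 between 1 and 613. These ranks and heights chose the window and are given without a test.

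Averaged over its 3 bins, the hotspot had 29.6, 32.4 and 19.1 times the column mean in WT (27.0 ± 6.98, SD, n = 3). It had 21.2, 24.2 and 23.1 in MUTYH-/ (22.8 ± 1.53), and 20.98, 33.0 and 21.6 in OGG1-/ (25.2 ± 6.75). In DKO it had 16.1, 25.1 and 26.1 (22.4 ± 5.49). Relative to bins of like GC content, the heights were lower, at 16.1 in WT, 14.6 and 13.7 in MUTYH-/ and OGG1-/, and 15.02 in DKO. Every knockout range overlapped that of WT. The counting error of the reads behind one column's hotspot value was 2.01 to 2.37 (SD, on the same scale), less than the spread between columns in 3 of the 4 genotypes.

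Whether loss of a glycosylase changes OG at the hotspot was asked with exact two-sided permutation tests over the columns. MUTYH-/ columns differed from WT by -4.21 (exact permutation p = 0.4, adjusted over the 3 knockouts 0.6), -1.83 in OGG1-/ (p = 1) and -4.58 in DKO (p = 0.4, adjusted 0.6). With 3 columns against 3 the smallest p is 0.1. Single columns moved these differences. Without WT column 2 they were -1.54, 0.838 and -1.92, and without WT column 3 -8.16, -5.78 and -8.54 in MUTYH-/, OGG1-/ and DKO. The OGG1-/ difference was -0.541 without WT column 1, and 0.283, -5.72 and -0.0467 without OGG1-/ columns 1, 2 and 3, while in the highest bin alone it was 1.20. The DKO difference was -1.43 without DKO column 1. In the larger comparison, the 6 OGG1-deficient columns had 23.8 ± 5.70 and the 6 OGG1-proficient ones 24.9 ± 5.07, a difference of -1.10 (exact permutation p = 0.727). The 6 MUTYH-deficient columns had 22.6 ± 3.61 and the 6 MUTYH-proficient ones 26.1 ± 6.22, a difference of -3.48 (exact permutation p = 0.255). The OGG1 difference turned to 0.384 without WT column 2 and 0.435 without DKO column 1, was -0.168, -0.534 and -0.666 without WT column 1 and OGG1-/ columns 1 and 3, and reached -2.26, -1.85 and -2.94 without WT column 3, MUTYH-/ column 1 and OGG1-/ column 2. The MUTYH difference was -2.23, -2.11 and -2.18 without WT column 2, OGG1-/ column 2 and DKO column 1. None of these 5 differences exceeded the spread between columns, and the smallest p that 6 against 6 allows is 0.00216. The effect of OGG1 loss did not differ detectably between cells with and without MUTYH (difference of differences 1.45, exact permutation p = 0.785). Without scaling, the differences of OGG1-/ and DKO were 28.8 and 6.33 deposited units, of the opposite sign. The mean over all bins was higher in the knockout columns than in WT by 0.18, 0.28 and 0.27 on the log2 scale in MUTYH-/, OGG1-/ and DKO, and the scaled differences are relative to that shift. OG reads per column were 59605795 to 86156722 in WT, 75488317 to 109745695 in MUTYH-/, 88186652 to 110877333 in OGG1-/ and 95004077 to 113916768 in DKO. Deposited values are not scaled to these depths, and the part of depth in the shift was not tested. The study's mass spectrometry found no significant global difference in OG.

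The deposited values could be taken apart into whole OG reads and whole input reads in 100% of the bins of every column. Both kinds of reads were high at the hotspot. In the highest bin there were 613 to 1089 OG reads per column, 22.7 to 30.7 times the column mean. The same bin had 701 to 1001 input reads, which is 20.9 to 29.1 times the column mean. Input and OG reads had thus risen to nearly the same degree. Ranked by the mean over 12 columns, the first 4 array bins held ranks 1 to 4 of all bins in OG reads and also ranks 1 to 4 in input reads.

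Over the 3 hotspot bins together, OG reads of WT, MUTYH-/, OGG1-/ and DKO were 24.3 ± 2.67, 22.1 ± 0.570, 22.3 ± 2.33 and 20.96 ± 0.865 times the column mean (SD, n = 3). Input reads were 22.9 ± 0.887, 21.8 ± 0.944, 21.1 ± 1.66 and 20.5 ± 2.45 times the column mean in the same order. The log2 ratio of OG to input reads, set to 0 for all bins of the column, was 0.11, 0.18 and -0.05 in WT and -0.02, 0.05 and 0.04 in MUTYH-/. It was -0.03, 0.21 and 0.04 in OGG1-/ and -0.11, 0.07 and 0.16 in DKO. The mean over all 12 columns was 0.05 ± 0.10 (SD), so that the ratio of OG to input at the hotspot was within its spread between columns of the ratio over the genome. Because the deposited value is a difference of reads, it grows with the number of reads even at an unchanged ratio. The hotspot held 0.298 ± 0.067 deposited units per input read and the genome 0.263 ± 0.027 (SD, n = 12).

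The ratio did not differ detectably between genotypes. Compared with WT it was lower by 0.06 in MUTYH-/ (difference -0.06, exact permutation p = 0.5), and the differences of OGG1-/ and DKO were -0.01 (exact permutation p = 1) and -0.04 (exact permutation p = 0.6). Input reads alone differed from WT by -1.14, -1.84 and -2.46 times the column mean in MUTYH-/, OGG1-/ and DKO (exact permutation p = 0.2 each). Among all bins with at least 10 input reads, the ratio of the highest bin stood at the 36.5th to 68.8th percentile of its column (median 54.5), although its deposited value stood in the top ranks. Bins with fewer reads spread wider in this ratio, which draws the percentile of a bin with many reads towards the middle.

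**Figure D3:**
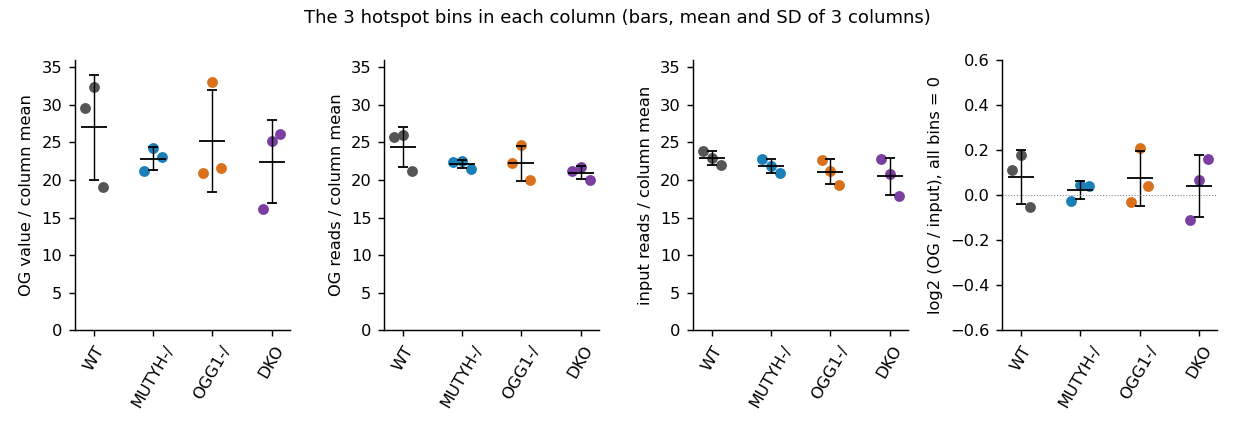
The 3 hotspot bins in each column, by genotype: OG value, recovered OG reads and recovered input reads, each divided by the column mean, and the log2 ratio of OG to input reads (all bins = 0); points are columns and bars the mean and SD of 3. OG reads and input reads lie both between 17.9 and 26.0, and the log2 ratios between -0.11 and 0.21.

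The same held along the array. Over the 66 array bins, OG reads and input reads (each the mean of 12 columns) followed each other with r = 0.999, and the deposited value followed input reads with r = 0.985. These points share libraries and depth. In the 92 bins before the array, where input reads ranged only from 0.210 to 1.77 times the mean, the deposited value did not follow them (r = 0.0137) and followed the GC content weakly (r = 0.308). The array without its first 5 bins had 4.67 ± 0.302 times the mean input reads and a log2 ratio of 0.10 ± 0.12, and the bins before the array had 1.06 ± 0.077 and 0.16 ± 0.09 (SD, n = 12). The ratio was therefore no higher in the array than in the sequence before it, whereas the value was.

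**Figure D4:**
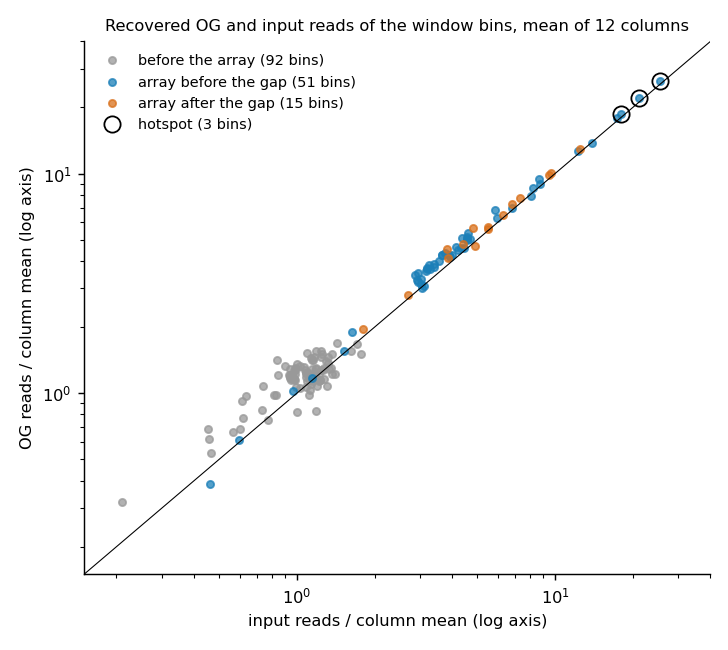
Recovered OG reads against recovered input reads of the 158 window bins outside the gap, both divided by the column mean and averaged over 12 columns, on log axes; the line marks equal values. Array bins before and after the gap lie along the line up to the 3 hotspot bins (circles, 18.0 to 25.6 times the mean input), and bins before the array lie around 1.

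Few places in the genome had as many input reads. Input was at least 10 times the column mean in all 12 columns in 6 bins, all in this array. At 5 times or more there were 34 bins, 17 of them in the window. The 17 others had a median value of 12.2 times the column mean, the window bins 11.5. The median log2 ratio was 0.19 in the others and 0.05 in the window bins. How many copies of the unit HAP1 cells carry was not analysed here, and its part in the high read counts was not tested.

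How well reads can be placed varies along the array. Of the 100 bp stretches of the hotspot bins, 100%, 95.2% and 59.6% occur once in GRCh38, in genomic order. In the array without its first 5 bins the median was 29.1%. No 31 bp stretch of an array bin had a copy outside the locus. Of the 5 further bins with the highest mean, those at chr1:2758001 and chr1:2697001 had 20% each. Those at chr1:2652001, chr1:2683001 and chr1:2684001 had 92.4%, 73.5% and 64.8%. Over the 66 array bins the value and this share had r = 0.456, and without the first 5 bins r = 0.084, given as descriptions. Bowtie2 was run at default settings, which place a read with several equal matches at one of them. The part of read placement in the values was not tested.

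OG-enriched bins (OG-EBs) were taken here as bins whose deposited value reached the 95th percentile of the column in 2 or more of the 3 columns. The study itself ranked bins on OG relative to input, within technical replicates, so these are not its calls. Of the 201 window bins, WT, MUTYH-/, OGG1-/ and DKO had 59, 56, 56 and 50. Among all bins, 1.34%, 1.33%, 1.54% and 1.3% of bins were called in these genotypes, and 0.0313% in all 4 at once. Of the first 5 array bins, 5 were called in WT, MUTYH-/ and OGG1-/ and 4 in DKO. Before the array, only 4, 4, 5 and 4 of 92 bins were OG-EBs. The rule that chose the window used these values, so nothing is read from the counts. When bins were ranked instead by the ratio of recovered OG to input reads (bins with at least 10 input reads in every column), the window held 0 OG-EBs in WT and MUTYH-/, 3 in OGG1-/ and 2 in DKO, with 0.832%, 0.839%, 0.871% and 0.822% of bins called over the table. None of these lay in the array: they were chr1:2560001-2561000, chr1:2579001-2580000 and chr1:2596001-2597000 in OGG1-/, and chr1:2595001-2596000 and chr1:2596001-2597000 in DKO, chosen for mention after their values were seen. The log2 threshold of that ranking lay between 0.87 and 1.07, while the hotspot ratios were at most 0.21. Over the columns, the SD of the log2 ratio was 0.13 in the highest bin and 0.64 at chr1:2560001, which had far fewer reads. Counting error alone takes a bin with few reads past such a threshold more readily, so nothing is read from the absence of array bins.

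Bins that differed from WT (OG-DERs) were called with limma over all 2802495 bins tested, with a p not above 0.01 before adjustment and a log2 difference of more than 0.5 either way. In MUTYH-/, 4 of the 158 window bins tested were gained and 6 lost (2.53% and 3.80%), against 0.3% and 0.322% of all bins. In OGG1-/, 2 were gained and 3 lost (1.27% and 1.90%), against 0.299% and 0.256%. In DKO, 1 was gained and 8 were lost (0.633% and 5.06%), against 0.296% and 0.312%. Most of these were in the array, with 9, 5 and 7 of 66 array bins against 1, 0 and 2 of the 92 bins before it. The test gave each bin the variance of bins of like mean, and in 60 of the 66 array bins the bin's own variance between columns exceeded it. When the trend was left out, 0, 1 and 0 window bins were called. Without scaling there were 6 gained and 2 lost in MUTYH-/, 5 and 2 in OGG1-/ and 4 and 6 in DKO. Single columns moved the counts too. Without WT column 2 the window had 12 gained and 4 lost bins in MUTYH-/, 9 and 1 in OGG1-/ and 8 and 6 in DKO. OGG1-/ had 11 calls without WT column 1 and 9 without OGG1-/ column 2. DKO had 14 without WT column 1, 16 without WT column 3 and 17 without DKO column 2.

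At a limma adjusted p under 0.05, MUTYH-/, OGG1-/ and DKO had 3, 0 and 1 window bins, against 0.0005%, 0.00025% and 0.00139% of all bins. Of the 158 window bins tested, 21, 15 and 21 had an unadjusted limma p under 0.05 in MUTYH-/, OGG1-/ and DKO. The share over all bins at this threshold is not given here, so nothing is read from these counts. At the adjusted threshold, the hotspot bin at chr1:2655001 had a log2 difference of -0.56 ± 0.08 (SE, limma adjusted p = 2.97e-06) in MUTYH-/. Its own SD between columns was 0.566 on the log2 scale, 5.63 times the SD of 0.101 that the test gave it, and the 3 MUTYH-/ values (8.17 to 29.4) overlapped those of WT (17.1 to 32.8). The highest bin had -0.33 ± 0.05 in MUTYH-/ (limma adjusted p = 0.000264) and -0.36 ± 0.05 in DKO (limma adjusted p = 1.13e-06), both under the fold threshold, with an own SD 7.50 times that of the trend. In the same bin OGG1-/ differed by 0.02 ± 0.05 (SE). The remaining bin had a gain of 1.24 ± 0.23 at chr1:2686001-2687000 in MUTYH-/ (limma adjusted p = 0.0151), where the 3 MUTYH-/ columns (14.2 to 15.4 times the column mean) lay above all WT columns (2.43 to 10.3). The groups did not overlap in that bin, but the share of all bins without overlap is not given here. When the trend was left out, 0 window bins were called in MUTYH-/, so that bin was not called either.

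**Figure D5:**
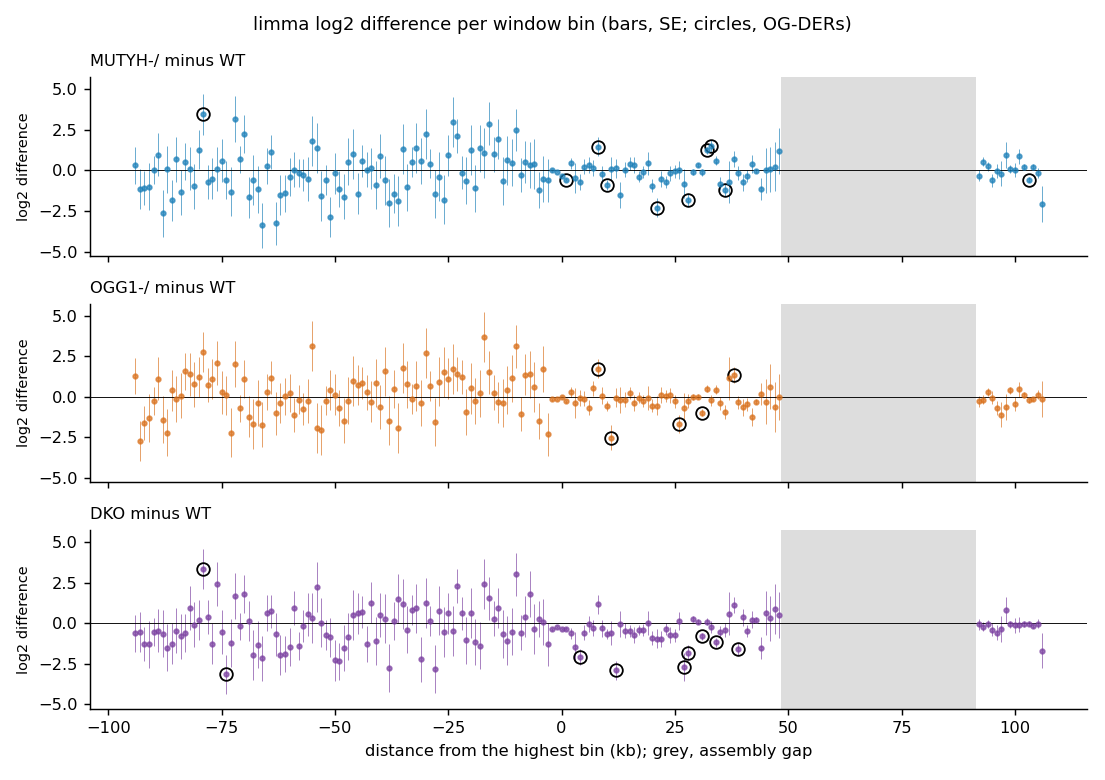
Log2 difference of each knockout from WT per window bin (y axis, limma, bars are SE) against the distance from the highest bin in kb; circles mark OG-DERs and grey the assembly gap. Calls cluster in the array, between 0 kb and the gap, where the SE given by the trend is small; 10, 5 and 9 bins are circled in MUTYH-/, OGG1-/ and DKO.

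Below the adjusted threshold, further calls had the following log2 differences, in order of p. In MUTYH-/, chr1:2687001-2688000 had 1.5 ± 0.36 and chr1:2682001-2683000 and chr1:2675001-2676000 had -1.82 ± 0.44 and -2.29 ± 0.60 (SE). The neighbouring bins at 2686001 and 2687001 both had a higher mean in MUTYH-/, with 13.9 against 5.32 times the column mean in the second. Both were picked by p in the same columns, so neither backs the other, and without the trend neither was called. In OGG1-/, chr1:2685001-2686000 had -0.98 ± 0.23, chr1:2665001-2666000 -2.51 ± 0.76, chr1:2662001-2663000 1.75 ± 0.56, chr1:2680001-2681000 -1.66 ± 0.56 and chr1:2692001-2693000 1.35 ± 0.49 (SE). In DKO, chr1:2666001-2667000 had -2.90 ± 0.60, chr1:2688001-2689000 -1.17 ± 0.26, chr1:2658001-2659000 -2.06 ± 0.48, chr1:2682001-2683000 -1.80 ± 0.44 and chr1:2693001-2694000 -1.56 ± 0.42 (SE). The limma adjusted p of these bins was 0.0767 for the first DKO bin and at least 0.377 for the others. Several of these bins held 1 column near or below 0, and values below 0 were set to 0 for the fit. At chr1:2662001, WT column 3 was -1.39 times the column mean, while WT column 2 (10.6) lay above every OGG1-/ column. At chr1:2680001, OGG1-/ column 1 was -1.93, while OGG1-/ column 2 (9.77) lay above every WT column. DKO column 1 was 0.241 at chr1:2688001 and 0.154 at chr1:2682001. At chr1:2687001 the lowest column was 1.09. The bin called in both MUTYH-/ and DKO, chr1:2682001-2683000, was compared with the same WT columns (5.62 to 16.1 times the column mean) in both.

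The window without the hotspot did not differ between genotypes beyond the spread between columns. Its 198 bins, gap included, in WT, MUTYH-/, OGG1-/ and DKO had 2.85 ± 0.915, 2.71 ± 0.279, 2.74 ± 0.570 and 2.33 ± 0.605 times the column mean (SD, n = 3). The differences from WT were -0.147 (exact permutation p = 1), -0.113 (exact permutation p = 0.8) and -0.519 (exact permutation p = 0.6). Across the 12 columns the hotspot moved with the rest of the window (Pearson r = 0.764, permutation p = 0.00448, Spearman rho = 0.678, permutation p = 0.0186, 1 relation computed). Both measures share libraries, input factors and the column mean as divisor, and the rest holds further bins of the same array. A positive r can arise from this alone, so the p-values do not bear on a link beyond it. Without the 2 columns farthest from the median of the rest of the window (WT column 2 and DKO column 1), r was 0.518 (permutation p = 0.129). Leaving out the farthest columns narrows the range and can lower r by itself. How far the relation rested on these columns is therefore not decided. When both were centred on the genotype means, r was 0.761 (exact permutation within genotypes, p = 0.0563), and without the same 2 columns 0.607 (exact permutation p = 0.208). The relation thus did not pass the threshold within genotypes, where 1296 orders were compared with all columns and 144 without these 2.

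MMEL1 itself had ordinary values. Over its 43 bins the level per bin was 1.34, 1.75 and 1.77 times the column mean in WT and 1.90, 1.20 and 1.20 in MUTYH-/. The OGG1-/ columns had 1.45, 1.84 and 1.90, and the DKO columns 1.15, 1.32 and 1.56. The order of the means was OGG1-/ (1.73 ± 0.245), WT (1.62 ± 0.241), MUTYH-/ (1.43 ± 0.409) and DKO (1.34 ± 0.206), and no neighbours in this order differed beyond their spread. Compared with WT, the differences were -0.190, 0.111 and -0.280 in MUTYH-/, OGG1-/ and DKO (exact permutation p = 0.6, 0.5 and 0.2). The 6 MUTYH-deficient columns were lower than the 6 others by a difference of -0.291 (exact permutation p = 0.0887), and the difference for OGG1 was 0.0108 (exact permutation p = 0.942). In the 19 bins with an exon the level was 1.81 ± 0.549 at a GC content of 64%, and in the 24 bins of intron alone 1.31 ± 0.233 at 48.0% (SD, n = 12). The 1 kb upstream of MMEL1 had 1.14 ± 1.05 in its single bin. In contrast to the hotspot, input reads over MMEL1 were 1.03 times the column mean.

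The other 7 annotated genes of the window were similar to MMEL1, except TTC34. The level was 1.79 ± 0.514 over TNFRSF14, a receptor of the TNF receptor superfamily, and 1.41 ± 0.412 over PRXL2B, a peroxiredoxin-like enzyme of prostaglandin synthesis (SD, n = 12). MMEL1-AS1, antisense to the start of MMEL1, had 1.34 ± 0.726. The genes known by identifier alone had 1.43 ± 0.813 (ENSG00000225931), 1.91 ± 0.606 (ENSG00000228037) and 1.69 ± 1.36 (ENSG00000289610). TTC34 had 3.27 ± 0.747 over its 165 bins. This level was set by the array: the 79 TTC34 bins of the repeat had 6.11 ± 1.45, and the 43 bins outside repeat and gap had 1.33 ± 0.297.

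The genes whose mean value over the 12 columns followed the hotspot most closely were on other chromosomes or elsewhere on chromosome 1. Among 23980 genes with at least 10 bins outside the window, Pearson r was 0.893 for SRMS, a Src-related kinase, 0.884 for ATPAF1, an assembly factor of the mitochondrial ATP synthase, 0.882 for VIPR1-AS1, 0.870 for RRP36, a factor of ribosomal RNA processing, and 0.858 for PSG11-AS1. All had levels between 1.05 and 1.96 times the column mean. They were picked as the highest of 23980 values over 12 columns, so the r values are descriptions only.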

How the data were processed

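The table holds OG-seq of 4 genotypes of HAP1 cells in 12 columns, 3 per genotype. The values are a score per 1000 bp bin as deposited. Before deposit, the authors used cutadapt 2.8 for adapter removal and Bowtie2 2.3.5.1 at default settings for alignment to GRCh38, marked duplicates with SAMtools, counted reads with bedtools, removed incomplete and blacklisted bins, scaled the input by SES and subtracted it from the OG reads. Clone and experiment of a column were not known here.

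The members of the window, the gene list and the tests were chosen with earlier results of these data known. Each value was divided by the mean of its column. Whole reads were recovered by solving each value for an OG count and the counts of 2 input runs with separate factors (tolerance 1e-09). The depth was 21.02 to 40.2 reads per bin for OG and 27.7 to 35.8 for input. A bin at exactly 0 was taken as no reads. Both this step and the fit were tested on simulated data. The simulated reads for the fit held counting error alone, without further spread between columns. That test therefore does not cover bins such as those of the array, whose columns spread more than the trend gave. The limma fit (limma 3.58.1, R 4.3.3) used log2 values with a pseudocount of 1, values below 0 set to 0, columns scaled to equal totals and bins above 0 in at least 3 columns, with the variance trend. The study's edgeR test was not used, because the values are not counts. Single values per column were compared with exact two-sided permutation tests (Python 3.11.15, scipy 1.17.1), and p-values of the 3 knockouts were adjusted after Benjamini-Hochberg. GC content, tandem self-matches, 31 bp and 100 bp stretches and motifs were counted in GRCh38, and genes taken from GENCODE. A gene took the bins it covers by at least 200 bp.

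Bins named in the text are the 3 hotspot bins, the 5 further window bins with the highest mean and the 3 with the lowest outside the gap, and up to 5 called bins per knockout by p. Genes named are all that overlap the window and the 5 most like the hotspot. Alternatives changed the scaling, scale, bins, GC correction, columns, filter, pseudocount, model and percentile. The alternatives on recovered reads and the tests of MMEL1 and of reads were chosen with the values in view. The precision per value is limited by counting error, which PCR duplicates could enlarge.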

Additional observations from a re-analysis of the deposited data

How the results depend on the processing

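No paired analysis was possible because the column names carry a genotype and a number, which the labels tie to no clone or experiment. Alternative settings gave 115 values of tests. For 75 of them, with at most 3 columns against 3, p could not go below 0.1, so that they could not pass and their p says nothing about stability. The other 40, with up to 6 against 6, had a lowest exact permutation p of 0.119. The sign changed in 14 of the 75 and 5 of the 40. Without scaling the hotspot differed from WT by 28.8 in OGG1-/ and 6.33 in DKO, and OGG1-deficient columns from proficient ones by 21.4 deposited units; the rest of the window differed by 1.77, 3.68 and 0.113 in MUTYH-/, OGG1-/ and DKO. With the highest bin alone the differences were 1.20 (OGG1-/) and 0.808 (OGG1-deficient), on the log2 ratio of recovered reads 0.0064 (OGG1-deficient), and on log2 values 0.011 for the rest of the window in OGG1-/. Leaving out 1 column gave hotspot differences of -8.16 to -1.54 in MUTYH-/, -5.78 to 0.838 in OGG1-/ and -8.54 to -1.43 in DKO, of -2.94 to 0.435 for OGG1 and -4.88 to -2.11 for MUTYH deficiency, and for the rest of the window -0.428 to 0.381, -0.416 to 0.415 and -0.801 to 0.00854. The heights then were 24.4 to 30.99 in WT, 22.1 to 23.6 in MUTYH-/, 21.3 to 27.3 in OGG1-/ and 20.6 to 25.6 in DKO. Relative to bins of like GC content they were 16.1, 14.6, 13.7 and 15.02, and as a ratio of recovered OG to input reads, added after seeing the data, 1.06, 1.01, 1.06 and 1.03. In MUTYH-/ the height was 25.2 relative to the median bin, 24.99 in the highest bin and 19.5 over 5 bins. OG-EBs required in 3 of 3 columns numbered 32, 35, 32 and 22, and by the ratio 0, 0, 3 and 2. OG-DERs in MUTYH-/, OGG1-/ and DKO numbered 3, 0 and 1 at an adjusted p, 0, 1 and 0 without the trend, 2, 0 and 1 without the filter, 4, 2 and 2 within GC strata, 5, 2 and 5 with a pseudocount of 5, and 4, 0 and 1 on linear values. Leaving out 1 column gave 8 to 16, 4 to 11 and 7 to 17. The cause of these changes was not tested. With 613 or more OG reads in the highest bin, counting error was below the spread between columns in WT, OGG1-/ and DKO, but not in MUTYH-/.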

Other observations

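Other bins with a high self-match at 40 bases had low values. Repeats of a shorter period that divides 40 also match at this distance, and the period of these bins was not determined. Outside this locus, 1068 bins had a self-match of at least 50% at 40 bases. Their median value was 0.602 times the column mean, their highest 3.47, and 83 were below 0. Their input reads had a median of 0.694 times the column mean, with 1 bin at 3 times or more, and their median GC content was 47.5%. None of them was an OG-EB in all 4 genotypes.

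Among the 12 bins of the genome with the highest mean over the columns, ranks 1, 2, 5 and 6 were in the window. The others included chr21:8988001-8989000 with 23.7 ± 9.08 times the column mean, where input reads were 11.4 times the mean, and chr1:228558001-228559000 with 21.4 ± 11.2 (SD, n = 12). The widest spread was at chr16:33338001-33339000, with 18.0 ± 20.7.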
